A study of Arabidopsis thaliana with 48 samples.

Results

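The chloroplast genome of Arabidopsis thaliana appears in the count table as 133 loci whose names start with ATCG. Of these, 87 had 10 or more counts in 4 or more of the 48 libraries, and they are the chloroplast-encoded genes described here, out of 33211 features in all. The choice used only this minimum of counts over all libraries. Of the 87, 71 reached it among the 40 libraries up to 12 d, and 16 reached it only with the libraries of 15 d, where most loci were high. Those 16 are members because they were high in libraries of 15 d, so the main counts that involve 15 d are also given for the 71. The other 46 loci fell below the minimum. Among them, 8 had no count in any library, and the highest count of any in a single library was 130. The 87 loci held between 99.6% and 100% of all chloroplast counts in every library, and all 87 passed the count filter of the test across genes.

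All plants were of the ecotype Col-0. Plants 3 weeks old either received 20 adult females of the spider mite Tetranychus urticae, a herbivore that feeds on leaf cell contents, or were kept as controls without mites. Infested and control plants were each harvested after 30 min and 24 h, and again 4, 7, 12 and 15 d from the start, which gave 12 groups. Every library came from the total RNA of the aerial parts of a pool of 4 plants, and each group had 4 libraries. Infested plants carried the same number of mites at the start in every group, and every plant stood in a cylinder.

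Chloroplasts keep a small genome that encodes subunits of the photosystems, the cytochrome b6f complex, the ATP synthase, the NDH complex and Rubisco, together with parts of their own ribosomes and RNA polymerase, ribosomal RNAs and transfer RNAs. Most subunits of the same complexes are encoded in the nucleus, so photosynthesis in a leaf depends on both genomes. Chloroplast genes are transcribed by a bacterial-type polymerase, whose sigma factors come from the nucleus, and by phage-type polymerases that are wholly nuclear-encoded. Many chloroplast genes are transcribed together in long units, and most of their transcripts lack the long poly(A) tails of nuclear mRNAs. Whether the libraries were selected by poly(A) tail or depleted of ribosomal RNA is not given in the sources used here.

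Locus names were paired with a description for 6 of the 87 loci, through notes of the reference annotation that name them as the closest match of a nuclear gene. ATCG00430 was noted as photosystem II reaction center protein G, and the nuclear gene it matched was described as a subunit of an NADH-ubiquinone oxidoreductase. ATCG00530 was noted as CemA-like, a protein linked to proton movement across the chloroplast envelope. ATCG00670 was noted as CLP P, the proteolytic subunit of the Clp protease of the stroma. ATCG00660, ATCG00750 and ATCG01310 were noted as the ribosomal proteins L20, S11 and L2, of which L20 and L2 belong to the large and S11 to the small subunit. The sources used here do not pair the other 81 loci with names, so those are given by locus alone and without a role.

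Library totals lay between 12.5 and 23.4 M counts, with a median of 18.9 M, and were lowest in the infested plants of 30 min, at 12.5 to 14.6 M against 17.6 to 21.4 M in the controls of that time. Chloroplast loci gave between 3265 and 265126 counts in a library. The 4 marker genes of green leaf summed to 26396 to 34265 counts per M (CPM, where M is the unit of library totals) in infested and 18505 to 24690 CPM in control plants at 15 d, against 47142 to 49336 CPM in infested and 47636 to 53145 CPM in control plants at 30 min. The 4 root markers summed to at most 0.606 CPM in any library. The 5 floral markers summed to 91.6 to 121 CPM in infested and 103 to 135 CPM in control plants at 15 d, against 3.32 to 5.09 CPM in infested and 3.28 to 4.98 CPM in control plants at 30 min. The 4 senescence markers summed to 124 to 215 CPM in infested and 146 to 268 CPM in control plants at 15 d, against 19.5 to 26.0 CPM in infested and 19.1 to 29.3 CPM in control plants at 30 min. In aerial parts as a whole, more or fewer green cells and more or less chloroplast RNA in each cell cannot be told apart. Neither can be told apart from more or less chloroplast RNA entering a library, as the selection of RNA is not given.

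A set of 3 libraries stood apart from the rest in the share of counts on the 4 annotated nuclear ribosomal RNA loci. This share was 0.203% in replicate 2 of the infested plants of 30 min, 0.753% in replicate 2 of the control plants of 15 d and 0.903% in replicate 4 of the same group. It lay between 0.0155% and 0.108% in the other 45 libraries. The counts of loci at 30 min, at 15 d and between the control plants of these times are given with and without them.

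The share of all counts that fell on chloroplast loci was small up to 12 d, with lower values at the later of these times, and it was higher and far more variable at 15 d. In 39 of the 40 libraries up to 12 d it lay between 0.0165% and 0.0338%, with a median of 0.0240%. The remaining library, replicate 2 of the infested plants of 30 min, had 0.0816%. In control plants the mean share was 0.0327% at 30 min, 0.0279% at 24 h, 0.0253% at 4 d, 0.0248% at 7 d and 0.0189% at 12 d, and the libraries of 12 d, at 0.0165% to 0.0240%, were all below those of 30 min. At 15 d the shares of the 4 infested libraries were 0.0824%, 0.329%, 0.473% and 0.140%, and those of the 4 control libraries were 0.334%, 1.53%, 0.0437% and 1.29%. All 8 libraries of 15 d were thus above the 39 earlier ones, and the 2 groups overlapped, with the control plants holding both the lowest and the highest value. The group means were 0.256 ± 0.179% in infested and 0.800 ± 0.722% in control plants at 15 d (SD, n = 4 each). The 95% Wilson interval of a library's share was at most 3.43% of its value to either side, for counting error only.

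**Figure D1:**
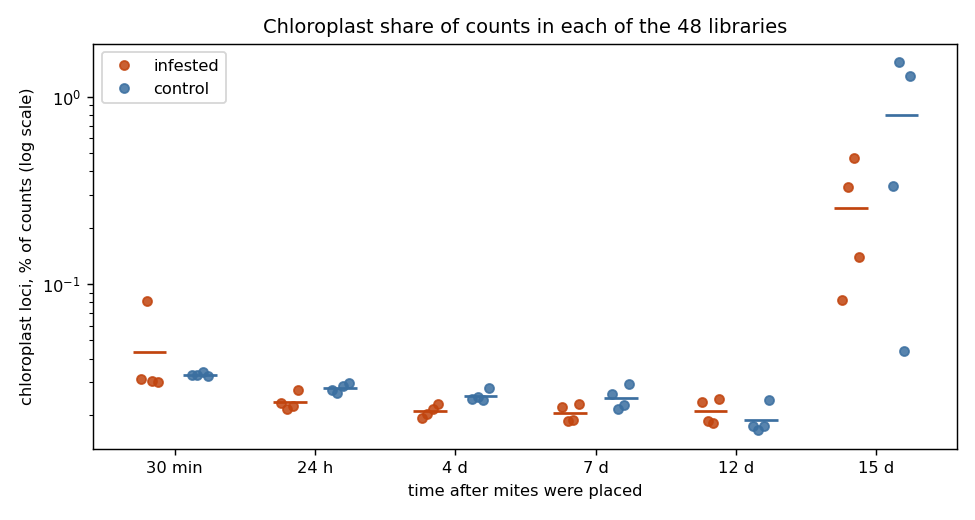
Percent of all counts on chloroplast loci (log axis) in each of the 48 libraries, by time after mites were placed, with infested plants on the left and control plants on the right of each time. Points are libraries and horizontal lines are group means; the 8 libraries of 15 d lie between 0.0437% and 1.53%, above all but 1 of the earlier libraries.

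Before 15 d, the shares of infested plants sat slightly below those of the controls at several times. At 4 d the infested libraries had 0.0192%, 0.0202%, 0.0214% and 0.0229%, and the control libraries had 0.0245%, 0.0249%, 0.0241% and 0.0279%, so that the groups did not overlap. At 24 h the infested libraries lay between 0.0214% and 0.0270% and the control libraries between 0.0261% and 0.0297%, with a small overlap. At 30 min the 3 infested libraries other than replicate 2 lay between 0.0301% and 0.0309%, and the 4 control libraries between 0.0321% and 0.0338%. The order was the other way at 12 d, where the means were 0.0210 ± 0.0032% in infested and 0.0189 ± 0.0035% in control plants (SD, n = 4 each), and the groups overlapped. Set side by side by replicate number, the infested library had the lower share in all 4 pairs at 24 h, at 4 d and at 7 d, with ratios to the control library of 0.785 to 0.908, 0.784 to 0.888 and 0.774 to 0.864. At 12 d it had the higher share in all 4 pairs, with ratios of 1.01 to 1.34. Replicate 4 had the highest chloroplast share and the highest share of nuclear ribosomal RNA in each of the 8 groups from 24 h to 12 d. The labels do not say what a replicate number marks. Sums over all loci were not tested and are given as a description.

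Replicates 2 and 4 of the control plants of 15 d had the highest chloroplast shares. They also had the highest shares on mitochondria-encoded loci and on nuclear ribosomal RNA. Between harvests, libraries with like shares of nuclear ribosomal RNA could differ in chloroplast share. Replicate 2 of the infested plants of 15 d had 0.329% chloroplast counts and 0.0704% nuclear ribosomal RNA. Replicate 4 of the infested plants of 4 d had 0.0229% and 0.0713%. Nuclear ribosomal RNA took 0.0546% to 0.108% in infested plants at 15 d. Within that group replicate 3 had the highest share of both classes, with 0.473% chloroplast counts. Replicate 1 had the lowest of both, with 0.0824% chloroplast counts. Replicates 2 and 4 lay between them and were in opposite order for the 2 classes. Mitochondrial loci took 0.0159% of counts in replicate 2 of the infested plants of 30 min, against 0.00405% to 0.0121% in the other 39 libraries up to 12 d. They took 0.0116% to 0.0193% in infested and 0.0251%, 0.134%, 0.00933% and 0.193% in control plants at 15 d. Replicate 3 of the control plants of 15 d, which had the lowest chloroplast share of that time, also had the lowest mitochondrial share and, at 0.0330%, the lowest share of nuclear ribosomal RNA at 15 d. The part of these other RNA classes in the chloroplast values was not tested.

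**Figure D2:**
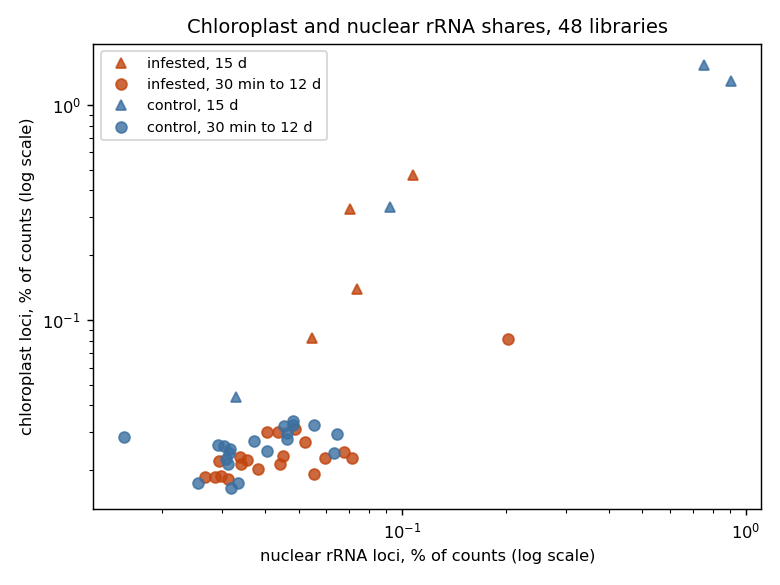
Percent of counts on chloroplast loci (y, log axis) against percent on the 4 nuclear ribosomal RNA loci (x, log axis) in the 48 libraries, with triangles for 15 d and circles for earlier times. Replicates 2 and 4 of the control plants of 15 d stand at the top right with 1.53% and 1.29% chloroplast counts, and replicate 2 of the infested plants of 30 min is the circle at 0.203% nuclear ribosomal RNA.

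Among the 87 loci the counts were spread unevenly. In every group the 10 loci with the most counts held between 44.6% and 55.0% of the chloroplast counts, and 27 to 29 loci each held at least 1%. Up to 12 d the highest shares belonged to ATCG00480 and ATCG01020 in all 10 groups, for instance 11.6% and 10.2% of chloroplast counts in control plants at 30 min. At 15 d they belonged to ATCG00280 and ATCG00270, with 9.58% and 9.07% in infested and 8.83% and 8.65% in control plants. These are shares of counts without correction for length, so they do not rank the loci by transcript number. The median of the loci's mean levels was 16.0 CPM in infested and 30.0 CPM in control plants at 15 d, against 1.52 CPM in infested and 1.24 CPM in control plants at 30 min. Of the 87 loci, 78 to 87 had 10 or more counts in a library at 15 d, against 48 to 70 up to 12 d. Because 16 of the 87 reached the minimum only with 15 d, part of this gap follows from how the loci were chosen.

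**Figure D3:**
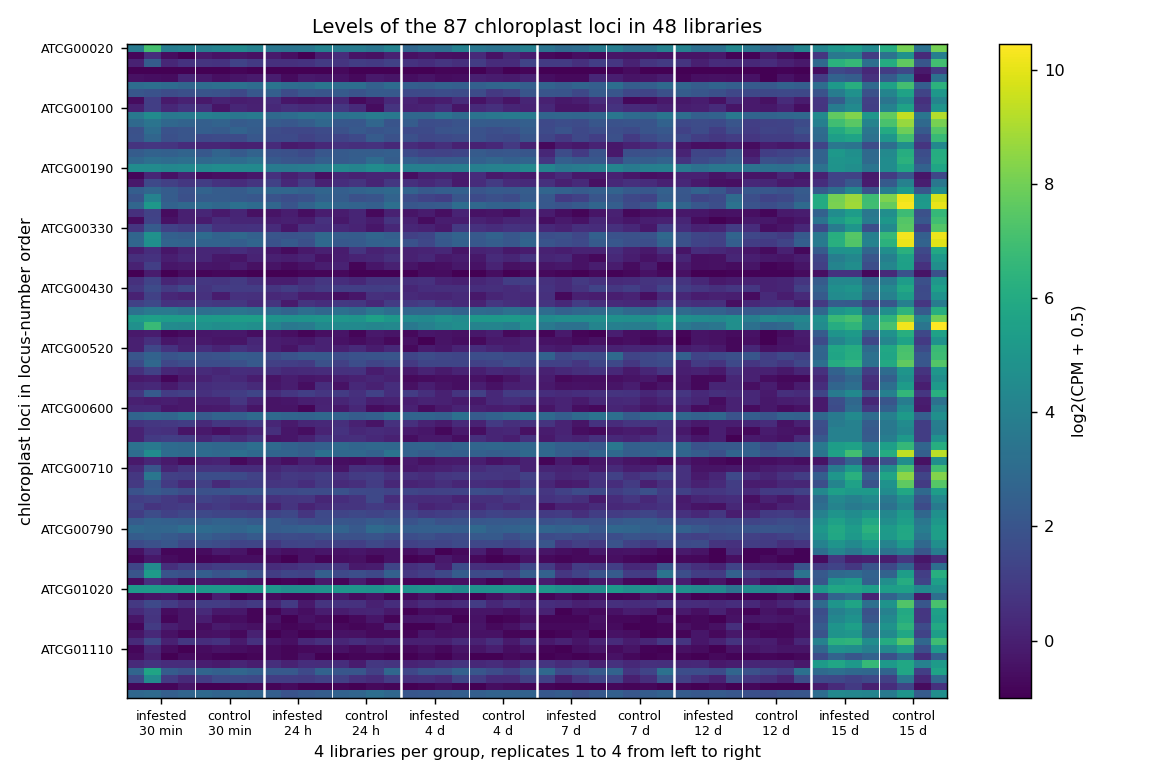
Levels of the 87 chloroplast loci, as log2(CPM + 0.5), in the 48 libraries, with loci in the order of their numbers from top to bottom and groups from 30 min to 15 d from left to right. The libraries of 15 d are brighter for most loci, replicate 3 of the control plants of 15 d is close to the earlier libraries, and replicate 2 of the infested plants of 30 min is brighter than its group in some loci.

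Control plants of 15 d were compared with control plants of 30 min to follow the loci over the development of uninfested plants. Levels among all RNA, in CPM after trimmed-mean (TMM) scaling, were higher at 15 d for 83 of the 87 loci and lower for none by edgeR's quasi-likelihood test with Benjamini-Hochberg adjustment over 22252 genes at 0.05. Over all genes tested, 36.4% were higher and 28.4% lower in this comparison. The median log2 fold change of the 87 loci was 4.65, against 0.06 over all genes, and those past the threshold lay between 1.47 and 7.36. The 83 include the 16 loci that are members through the libraries of 15 d alone, whose median was 6.01. In 58 of the 83 loci the fitted rise was at least 10-fold. That count has no split for these 16 and no share over all genes beside it. Among the 71 loci that reached the minimum of counts before 15 d, 67 were higher and none was lower, with a median of 4.44. The 4 loci that did not pass were ATCG00190, ATCG00920, ATCG01020 and ATCG01210. Age, harvest day and whatever else differed between the harvests cannot be told apart. The test shared 1 estimate of spread over the 12 groups. The chloroplast share of control plants had an SD of 0.722% at 15 d and of 0.0007% at 30 min. Adjusted p values of comparisons that involve 15 d can therefore be too small.

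All 6 annotated loci were among those higher in control plants at 15 d. ATCG00430, whose note and nuclear match name different complexes, had 20.03, 58.1, 2.50 and 44.3 CPM in control plants at 15 d and 1.15, 1.55, 1.54 and 1.54 CPM at 30 min. All 4 later libraries were above all 4 earlier ones, with a log2 fold change of 4.42 ± 0.53 (SE, edgeR adjusted p = 3.05e-09). ATCG00530, the CemA-like locus, had 52.2, 147, 3.78 and 114 CPM at 15 d and 3.09, 3.33, 4.57 and 4.3 CPM at 30 min. Here replicate 3 of 15 d lay within the earlier range while the other 3 libraries were far above it (log2 fold change 4.38 ± 0.65, adjusted p = 2.87e-07). Over all alternative fits, by edgeR or DESeq2, the adjusted p was at most 0.0109 for ATCG00530 and 0.0074 for ATCG00430. ATCG00670, the Clp protease subunit, had 43.1, 96.9, 6.15 and 69.3 CPM at 15 d and 7.39, 6.56, 6.40 and 8.32 CPM at 30 min. Again only replicate 3 did not exceed the earlier libraries (log2 fold change 2.91 ± 0.43, adjusted p = 2.79e-07).

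The ribosomal protein loci rose by unequal amounts. ATCG00660 (L20) had 14.0, 35.8, 1.63 and 27.6 CPM in control plants at 15 d and 0.682, 1.12, 0.800 and 1.21 CPM at 30 min, with no overlap (log2 fold change 4.36 ± 0.57, edgeR adjusted p = 1.65e-08). ATCG00750 (S11) had 11.6, 24.5, 3.47 and 19.4 CPM at 15 d and 1.94, 1.59, 1.26 and 1.60 CPM at 30 min, also with no overlap (3.20 ± 0.37, adjusted p = 8.30e-10). ATCG01310 (L2) had 12.36, 30.8, 4.35 and 24.5 CPM at 15 d and 7.13, 6.04, 6.74 and 6.06 CPM at 30 min. It had the smallest rise of all loci past the threshold (1.47 ± 0.29, adjusted p = 2.23e-05), and its replicate 3 of 15 d was below all libraries of 30 min. The gene for L2 lies in the inverted repeat of the chloroplast genome, so its reads can be shared with a near-identical copy and its count is uncertain. Without the 3 libraries of high nuclear ribosomal RNA its log2 fold change was 0.33 and it did not pass (adjusted p = 0.268), while the other 5 annotated loci passed with log2 fold changes between 1.75 and 2.99.

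**Figure D4:**
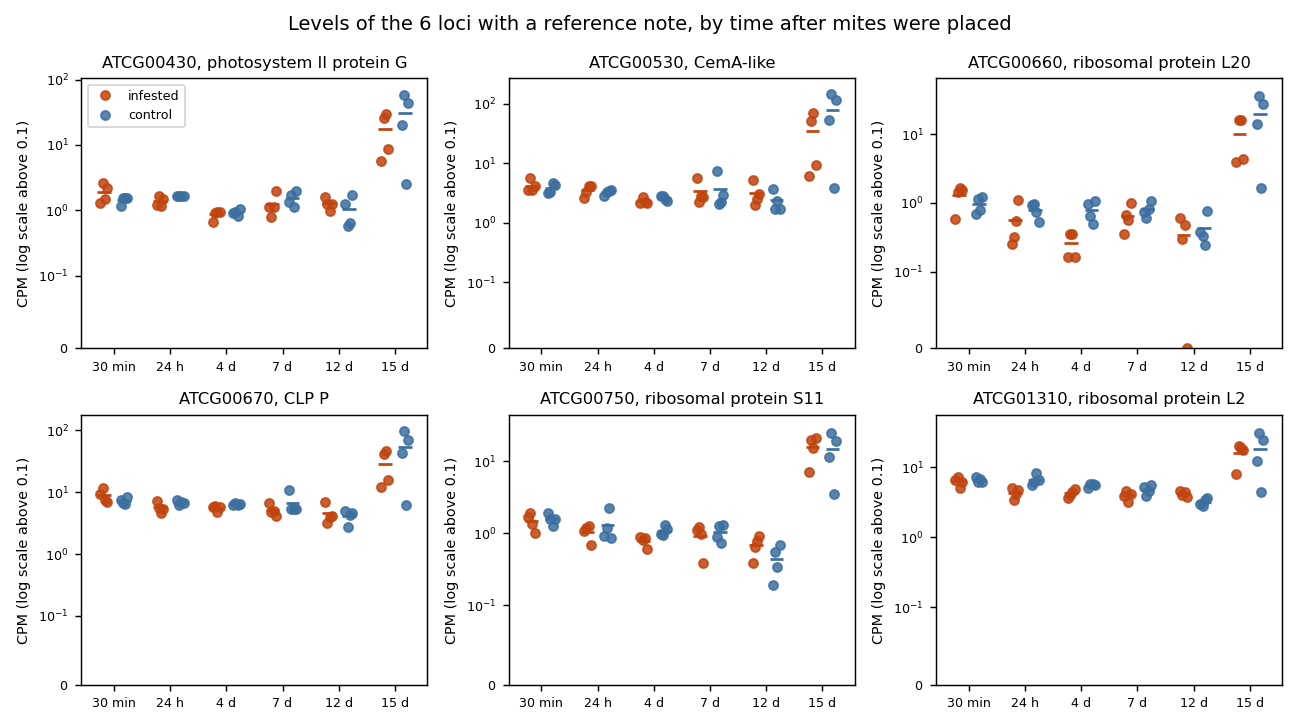
Levels in CPM (log scale above 0.1) of the 6 annotated chloroplast loci in every library by time after mites were placed, with infested plants left of control plants; horizontal lines are group means. Most libraries of 15 d lie above the earlier ones, replicate 3 of the control plants is the low point of that time in every panel, and ATCG00750 and ATCG01310 are lower in control plants at 12 d than at 30 min.

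The largest rises of control plants at 15 d belonged to ATCG01080 and ATCG01110. ATCG01080 had 28.6, 85.6, 2.55 and 60.6 CPM in control plants at 15 d and 0.157, 0.375, 0.286 and 0.220 CPM at 30 min. Every later library was above every earlier one, with a log2 fold change of 7.36 ± 0.83 (edgeR adjusted p = 8.47e-10). ATCG01110 had 19.8, 45.0, 2.81 and 36.6 CPM at 15 d and 0.157, 0.234, 0.171 and 0.110 CPM at 30 min (log2 fold change 7.2). No library before 15 d had 10 counts of ATCG01110, so it is a member through the libraries of 15 d alone, and its rise is given as a description without a test. ATCG01080 had 10 or more counts in 4 earlier libraries. The next in size were ATCG01070, ATCG00270 and ATCG00500. ATCG00270 had 298, 1136, 32.4 and 864 CPM in control plants at 15 d and 4.35, 4.5, 4.29 and 3.86 CPM at 30 min, without overlap, and it had 10 or more counts in all 40 earlier libraries (7.1 ± 0.72, adjusted p = 6.46e-11). ATCG01070 (1.32 to 64.7 CPM at 15 d and 0.0551 to 0.472 CPM at 30 min) and ATCG00500 (2.33 to 72.4 CPM at 15 d and 0.165 to 0.343 CPM at 30 min) had log2 fold changes of 7.18 and 6.98, and each reached 10 counts in only 1 earlier library, so these values are likewise a description. For ATCG01080 and ATCG00270, which reached the minimum before 15 d, leaving out any single library of the 2 groups did not end the call. The log2 fold changes were 5.82 for ATCG01080 and 5.97 for ATCG01110, and between 5.25 and 5.65 for the other 3, without the 3 libraries of high nuclear ribosomal RNA. The 4 control libraries of 15 d lay above the 4 of 30 min in 46 of the 87 loci and below them in none, while 31% of all genes tested had such a gap upwards and 24.6% downwards. Among the 71 loci that reached the minimum before 15 d the gap was upwards in 33 and downwards in none. ATCG01020 did not move with the rest: it had 41.7, 44.8, 21.4 and 26.7 CPM at 15 d and 33.8, 34.0, 35.5 and 33.1 CPM at 30 min, and its log2 fold change was -0.02 ± 0.19.

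The rise was smaller without the libraries that stood apart. Of the control plants of 15 d, that fit kept only replicates 1 and 3, with chloroplast shares of 0.334% and 0.0437%. With replicates 2 and 4 of the control plants of 15 d and replicate 2 of the infested plants of 30 min left out, 70 loci were still past the threshold and higher and none was lower, and the median log2 fold change was 2.86. Of the 71 loci that reached the minimum before 15 d, 55 were higher in that fit, with a median of 2.56. No share over all genes is given for it. Leaving out any single library of the 2 groups gave 83 to 86 loci. Infested plants of 15 d were also above most earlier libraries: in 31 of the 87 loci all 8 libraries of 15 d, infested and control, were above all 40 earlier ones, against 2.06% of all genes tested. Without replicate 2 of the infested plants of 30 min and replicate 3 of the control plants of 15 d this number was 56, against 2.4% of all genes. These 2 libraries had the highest earlier chloroplast share and the lowest share of 15 d. They were picked after their values were seen, so the larger number follows in part from leaving them out. Over the 71 loci that reached the minimum before 15 d the numbers were 23 with all libraries and 44 without these 2. Infested and control plants of 15 d share the harvest.

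Nuclear genes for subunits of the same complexes were lower over this interval. Of 27 nuclear-encoded subunits of the photosystems, cytochrome b6f complex, ATP synthase and Rubisco, all 27 were lower in control plants at 15 d than at 30 min and none was higher, with a median log2 fold change of -1.19. Over all genes tested, 28.4% were lower and 36.4% higher in this comparison. Of the 27, 26 were lower without the 3 libraries of high nuclear ribosomal RNA. The green leaf markers were lower over the same interval, at 18505 to 24690 CPM in control plants at 15 d and 47636 to 53145 CPM at 30 min, and their part in these falls was not tested. PETC, the Rieske protein of the cytochrome b6f complex, averaged 557 ± 51 CPM at 15 d and 1087 ± 67 CPM at 30 min in control plants (SD, n = 4 each; log2 fold change -0.96, edgeR adjusted p = 1.69e-13). ATPC1, the gamma subunit of the ATP synthase, averaged 673 ± 59 CPM at 15 d and 1203 ± 59 CPM at 30 min (log2 fold change -0.84, adjusted p = 1.89e-13). Of 20 genes of chloroplast transcription, 2 were higher and 15 lower, and of 14 genes of chloroplast RNA processing and stability 12 were lower and none higher. The sigma factor gene SIGE was 1 of the 2 that were higher, at 161 ± 11 CPM at 15 d and 68.7 ± 28.6 CPM at 30 min (log2 fold change 1.23, adjusted p = 3.04e-09). SIG2, another sigma factor gene, averaged 62.0 ± 6.2 CPM at 15 d and 117 ± 4 CPM at 30 min (log2 fold change -0.91, adjusted p = 5.39e-15).

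Relative to the chloroplast total, that is, as a share of all chloroplast counts of a library, 24 loci were higher and 13 lower in control plants at 15 d than at 30 min by the same test. Of the 71 loci that reached the minimum before 15 d, 14 were higher and 13 lower, so 10 of the 24 were members through the libraries of 15 d alone. The median log2 fold change was 0.17 over the 71. Over all genes 5.57% were higher and 76.2% lower on this scale, which counts nuclear genes against chloroplast RNA. ATCG01130 took 1.23%, 0.423%, 4.21% and 0.329% of chloroplast counts at 15 d and 0.143%, 0.115%, 0.185% and 0.132% at 30 min. All later libraries were above all earlier ones, with replicate 3 of 15 d the highest (log2 fold change 3.41 ± 0.71, edgeR adjusted p = 1.98e-05). Without that library the log2 fold change was 2.20, and without any other single library it lay between 3.32 and 3.75. ATCG01080 took 0.530% to 0.959% at 15 d and 0.0475% to 0.115% at 30 min (3.15 ± 0.81, adjusted p = 0.000427). The other 3 of the 5 largest relative rises, ATCG01110, ATCG01070 and ATCG00050, were members through the libraries of 15 d alone, and their shares are a description without a test. ATCG01110 took 0.320% to 0.738% at 15 d and 0.0329% to 0.0720% at 30 min. ATCG01070 took 0.343% to 0.703% at 15 d and 0.0165% to 0.143% at 30 min. ATCG00050 took 0.0132% to 0.104% at 15 d and was listed at 0 in 3 of the 4 libraries of 30 min. The largest relative falls were those of ATCG00190 and ATCG01210. ATCG00190 took 0.786%, 0.421%, 1.44% and 0.461% at 15 d and 6.46%, 7.11%, 5.95% and 6.32% at 30 min, without overlap (-3.07 ± 0.64, adjusted p = 1.76e-05). ATCG01210 took 0.0576% to 0.184% at 15 d and 0.475% to 0.763% at 30 min (-2.87 ± 0.70, adjusted p = 0.000244). ATCG01020 took 1.4%, 0.335%, 5.61% and 0.233% at 15 d and 9.90% to 10.4% at 30 min (-2.45 ± 0.62, adjusted p = 0.000358), with replicate 3 of 15 d the nearest to the earlier libraries. Its log2 fold change was -3.97 without that replicate and -1.56 without the 3 libraries of high nuclear ribosomal RNA. ATCG00920 took 0.0441% to 0.161% at 15 d and 0.396% to 0.489% at 30 min (-2.38 ± 0.70), and ATCG01180 took 0.202% to 0.438% at 15 d and 1.53% to 1.87% at 30 min (-2.21 ± 0.63), both without overlap.

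Among the annotated loci, ATCG01310 (L2) fell relative to the chloroplast total, at 0.415%, 0.230%, 1.14% and 0.214% of chloroplast counts in control plants at 15 d and 2.15%, 1.86%, 1.98% and 1.81% at 30 min (log2 fold change -1.99 ± 0.63, edgeR adjusted p = 0.0029). All 4 later libraries were below all earlier ones. The other 5 did not pass the threshold on this scale, with log2 fold changes of 0.30 for ATCG00430, 0.08 for ATCG00530, 0.28 for ATCG00660, -0.98 for ATCG00670 and -0.25 for ATCG00750. On this scale no locus passed the threshold when the 2 groups were fitted alone, and 33 rose and 20 fell when the chloroplast loci were fitted without the nuclear genes. The 33 and 20 cover all 87 loci, without a split for those that are members through 15 d alone. Without control 15 d replicate 3, 23 fell. With the 3 libraries of high nuclear ribosomal RNA left out, 24 rose and 10 fell, and the median log2 fold change of the 87 loci was 0.54, against 0.30 with them in the fit. Among the 71 loci that reached the minimum before 15 d, 14 rose and 10 fell without the 3 libraries, with a median of 0.33.

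Infested plants were set against control plants of the same harvest to follow the loci during the attack. At 15 d, 22 of the 87 loci were lower in infested plants and none was higher in level among all RNA (edgeR's quasi-likelihood test), while 9.68% of all genes tested were lower and 8.67% higher. The median log2 fold change of the 87 loci was -1.16, against -0.02 over all genes, and 75 loci had a value below 0. Of the 22, 21 were among the 71 loci that reached the minimum of counts before 15 d. In no locus were the 4 infested libraries all below or all above the 4 control libraries, against 7.52% of all genes below and 6.39% above. Without the 3 libraries of high nuclear ribosomal RNA, which include control replicates 2 and 4, no locus was lower and 9 were higher in infested plants, and the median log2 fold change was 0.44. The controls left in that fit were replicates 1 and 3, with chloroplast shares of 0.334% and 0.0437%. No share over all genes is given for that fit, so its 9 higher loci are a description only. Single libraries also moved the count of lower loci, which was 10 without control replicate 2, 14 without control replicate 4, 36 without control replicate 1, 64 without control replicate 3 and 50 without infested replicate 3. The count of higher loci was 4 without control replicate 2, 4 without infested replicate 1, 2 without infested replicate 3 and 1 without control replicate 1. In the fit of these 2 groups alone no locus passed in either direction.

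ATCG00490 had the largest fall at 15 d. Its levels were 22.5, 67.8, 90.1 and 21.7 CPM in infested plants and 140, 1192, 10.5 and 1400 CPM in control plants. Control replicates 1, 2 and 4 were above every infested library and control replicate 3 was below all of them, so the groups overlapped (log2 fold change -3.76 ± 0.71, edgeR adjusted p = 0.000306). ATCG00340 had 11.8, 72.9, 172 and 15.5 CPM in infested plants and 101, 1214, 4.97 and 1136 CPM in control plants, with control replicates 2 and 4 above and control replicate 3 below all infested libraries (-3.17 ± 0.78, adjusted p = 0.00393). ATCG00350 had 12.7, 73.2, 162 and 16.5 CPM in infested and 80.4, 1104, 5.76 and 985 CPM in control plants (-3.04 ± 0.75, adjusted p = 0.00403). ATCG00330 had 2.41, 13.0, 31.2 and 2.75 CPM in infested and 20.6, 184, 1.71 and 169 CPM in control plants (-2.92 ± 0.67, adjusted p = 0.00212). ATCG00680 had 10.2, 47.97, 128 and 13.6 CPM in infested and 65.5, 665, 5.05 and 621 CPM in control plants (-2.76 ± 0.68, adjusted p = 0.00389). In all of these, control replicates 2 and 4 were the highest libraries and control replicate 3 the lowest, so the groups overlapped. Without the 3 libraries of high nuclear ribosomal RNA, the log2 fold change was -0.56 for ATCG00490 (adjusted p = 0.627) and 0.38 for ATCG00340 (adjusted p = 0.826), and it was 0.63, 0.16 and 0.52 for ATCG00350, ATCG00330 and ATCG00680, none past the threshold.

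None of the 6 annotated loci passed the threshold at 15 d with all libraries in the fit. ATCG00430 had 5.71, 25.6, 29.8 and 8.67 CPM in infested and 20.03, 58.1, 2.50 and 44.3 CPM in control plants, and ATCG00670 had 11.9, 40.7, 46.6 and 15.5 CPM in infested and 43.1, 96.9, 6.15 and 69.3 CPM in control plants. In both, infested replicates 2 and 3 were the high infested libraries and lay inside the range of the controls. Their log2 fold changes were -0.84 ± 0.43 for ATCG00430 and -0.91 ± 0.39 for ATCG00670 (edgeR adjusted p = 0.176 and 0.102). ATCG00530 had 6.05, 51.7, 70.5 and 9.22 CPM in infested and 52.2, 147, 3.78 and 114 CPM in control plants (-1.20 ± 0.54, adjusted p = 0.119). ATCG00660 (L20) had 3.93, 15.8, 16.0 and 4.4 CPM in infested and 14.0, 35.8, 1.63 and 27.6 CPM in control plants (-0.97 ± 0.46, adjusted p = 0.138). In both, control replicate 3 was below every infested library. Without control replicate 3 all 4 of these loci were past the threshold and lower in infested plants, at log2 fold changes of -1.23 for ATCG00430 (adjusted p = 0.00439), -1.60 for ATCG00530 (0.00749), -1.36 for ATCG00660 (0.00547) and -1.28 for ATCG00670 (0.00138). ATCG00530 and ATCG00670 also passed without infested replicate 3. Without control replicate 2 the 4 values were -0.35, -0.72, -0.52 and -0.46 in the same order, and none passed. ATCG00750 (S11) had 7.08, 20.1, 15.5 and 21.2 CPM in infested and 11.6, 24.5, 3.47 and 19.4 CPM in control plants, at a log2 fold change of 0.12 ± 0.32, which was 1.10 without the 3 libraries of high nuclear ribosomal RNA (adjusted p = 0.0703). ATCG01310 (L2) had 7.92, 20.2, 18.7 and 17.4 CPM in infested and 12.36, 30.8, 4.35 and 24.5 CPM in control plants (-0.16 ± 0.27). Without the 3 libraries, ATCG01310 was 1 of the 9 loci that were higher, at 0.96 ± 0.25 on the log2 scale (adjusted p = 0.0188).

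Most loci with falls at 15 d lay next to each other in locus number. Of the 22, 16 had a neighbour among the 87 that was also past the threshold. The 9 neighbouring loci from ATCG00740 to ATCG00820, which include ATCG00750, all had log2 fold changes above 0, between 0.11 and 0.54, and none passed the threshold. Only 3 further loci, ATCG01020, ATCG01120 and ATCG01130, had values above 0. Summed over the 9 loci, levels were 161, 321, 224 and 360 CPM in infested and 188, 342, 66.3 and 254 CPM in control plants. Over the other 78 loci they were 593, 2745, 4028 and 897 CPM in infested and 2786, 13015, 314 and 11156 CPM in control plants. The 9 loci thus varied less between the libraries of a group than the other 78 did, and infested replicate 4, low in the other loci, had the highest infested sum over these 9. Without the 3 libraries, 7 of the 9 loci were past the threshold and higher in infested plants, in a fit without a share over all genes beside it. The run was picked after its values were seen, and it has no test of its own.

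**Figure D5:**
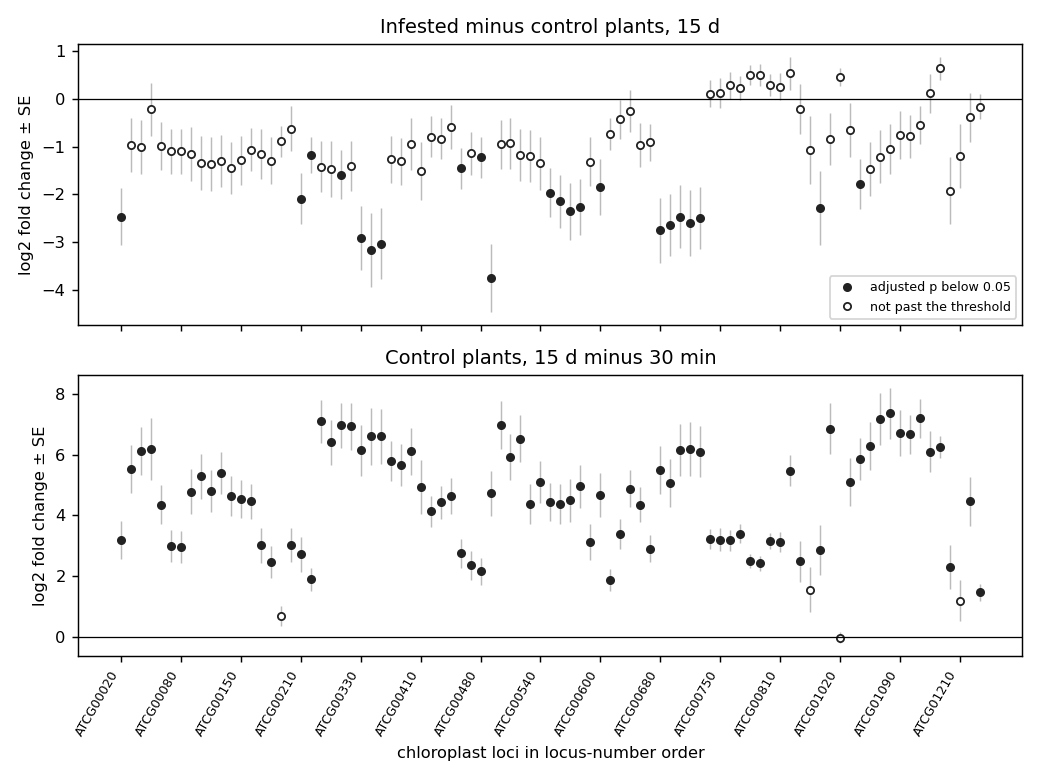
Log2 fold changes with SE of the 87 loci in the order of their numbers, for infested minus control plants at 15 d (top) and for control plants of 15 d minus 30 min (bottom); filled points passed an adjusted p of 0.05. At 15 d 22 loci are filled, all below 0, and the 9 neighbouring loci from ATCG00740 to ATCG00820 sit just above 0; in the lower panel 83 loci are filled, all above 0.

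Relative to the chloroplast total, no locus passed the threshold at 15 d in either direction, and 4 had an unadjusted p below 0.05 with a higher and 3 with a lower share in infested plants. Over all genes 0.0404% were higher and 0.103% lower on this scale. Without control replicate 3, 15 loci were higher and 9 lower, and when the chloroplast loci were fitted without the nuclear genes 12 were higher and 6 lower. No locus passed without the 3 libraries of high nuclear ribosomal RNA either, and the median log2 fold change was -0.09, against 0.13 with them. Nuclear-encoded subunits of the same complexes were higher in infested plants at 15 d in 21 of 27 cases and lower in none, with a median log2 fold change of 0.44. Over all genes tested, 8.67% were higher and 9.68% lower in level among all RNA at 15 d. The count of higher subunits was 2 without the 3 libraries of high nuclear ribosomal RNA and 0 in the fit of these 2 groups alone. It was 13 without control replicate 2, 12 without control replicate 4 and 11 without infested replicate 2. The green leaf markers were also higher, at 26396 to 34265 CPM in infested and 18505 to 24690 CPM in control plants, and their part in these values was not tested. ATPC1 averaged 883 ± 109 CPM in infested and 673 ± 59 CPM in control plants (log2 fold change 0.39, edgeR adjusted p = 0.000195).

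At 30 min, 1 of the 87 loci was higher and none was lower in infested plants, while 13.3% of all genes tested were higher and 9.7% lower. It was ATCG00920, with 2.09, 22.6, 0.946 and 1.52 CPM in infested and 1.31, 1.59, 1.49 and 1.43 CPM in control plants. Replicate 2 alone was high, and the other 3 infested libraries spread around the controls (log2 fold change 2.20 ± 0.75, edgeR adjusted p = 0.029). Without that replicate it was 0.07 (adjusted p = 0.99), and no locus was past the threshold. None was past it without any 1 of the 4 control libraries either, and 2 were without infested replicate 4. In the same library 80 of the 87 loci were above their group's mean log2 level. In 3 loci the infested libraries were all above and in 3 all below the controls, against 14.9% and 11.6% of all genes, and the median log2 fold change of the 87 loci was 0.32, or -0.05 without the 3 libraries.

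From 24 h to 12 d no locus passed the threshold in level among all RNA. The genes called over the whole table were 13% higher and 10.2% lower at 24 h, 8.68% and 7.68% at 4 d, 6.16% and 7.59% at 7 d, and 7.78% and 8.3% at 12 d. No locus had an unadjusted p below 0.05 at 24 h, 4 d or 7 d, and 1 had at 12 d. By DESeq2 no locus passed at 24 h, 4 d or 7 d either, and 1 was higher at 12 d. In the main test 1 locus was higher at 12 d without control replicate 3 or without infested replicate 3. Small shifts went mostly one way within a time. Log2 fold changes were below 0 in 64 loci at 24 h (median -0.22), in 69 at 4 d (median -0.31) and in 70 at 7 d (median -0.25), and above 0 in 60 at 12 d (median 0.20), while the median of all genes lay between -0.02 and 0.01. All loci share the libraries and their chloroplast share, so these counts are not independent observations.

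The infested libraries were all below the controls in 7 loci at 24 h, 11 at 4 d, 4 at 7 d and 1 at 12 d, against 13%, 13.1%, 7.49% and 8.53% of all genes. They were all above in 1, 0, 0 and 2 loci at the same times, against 13.9%, 12.5%, 7.4% and 8.26%. Gaps downwards at 4 d were thus about as common among the chloroplast loci as among all genes. Of the 6 annotated loci, 4 had such a gap at 4 d. ATCG00660 (L20) had 0.165, 0.357, 0.351 and 0.166 CPM in infested and 0.976, 0.645, 0.485 and 1.05 CPM in control plants at 4 d (log2 fold change -1.56, edgeR adjusted p = 0.23). ATCG01310 (L2) had 3.64, 3.98, 4.41 and 4.80 CPM in infested and 5.05, 5.69, 5.82 and 5.61 CPM in control plants at 4 d (-0.40, adjusted p = 0.444). ATCG00670, the Clp protease subunit, lay between 4.81 and 5.97 CPM in infested and between 6.26 and 6.57 CPM in control plants (-0.19, adjusted p = 0.857). ATCG00750 (S11) lay between 0.607 and 0.881 CPM in infested and between 0.938 and 1.29 CPM in control plants (-0.46, adjusted p = 0.59). ATCG01310 was also below in all libraries at 24 h, with 5.08, 3.34, 4.11 and 4.76 CPM in infested and 5.50, 6.23, 8.22 and 6.66 CPM in control plants (-0.62, adjusted p = 0.156). At 12 d it was above, with 4.49, 4.00, 4.38 and 3.79 CPM in infested and 2.99, 2.82, 3.39 and 3.67 CPM in control plants (0.37, adjusted p = 0.482).

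The spread that the model assumed for these times included the variable libraries of 15 d. With those 8 libraries left out of the fit, an alternative chosen after seeing the data, 4 loci were higher at 30 min, 2 lower at 24 h, 5 lower at 4 d, 1 lower at 7 d and 2 higher at 12 d. Over all genes, this fit called 14.1% higher and 9.61% lower at 30 min, 13.1% and 11.7% at 24 h, 9% and 8.37% at 4 d, 7.31% and 7.78% at 7 d, and 9.59% and 8.13% at 12 d, so the shares of chloroplast loci called were below those of all genes. The 2 at 24 h were ATCG01310 (log2 fold change -0.63 ± 0.14, edgeR adjusted p = 0.00089) and ATCG00190 (-0.62 ± 0.11, adjusted p = 5.26e-05). ATCG00190 had 12.7, 11.7, 13.2 and 14.5 CPM in infested and 19.8, 17.4, 23.5 and 19.4 CPM in control plants at 24 h. The 5 at 4 d were ATCG00120, ATCG00480, ATCG00660, ATCG00800 and ATCG01310, with log2 fold changes of -0.61, -0.55, -1.56, -0.45 and -0.40. The locus at 7 d was ATCG00780 (-0.41), and those at 12 d were ATCG00360 (1.26) and ATCG00480 (0.42). Those at 30 min were ATCG00020 (1.4), ATCG00130 (0.57), ATCG00920 (2.20) and ATCG01130 (0.92). In each of the 4, infested replicate 2 of 30 min was the highest infested library, for instance in ATCG00130 with 7.14, 10.02, 6.62 and 5.79 CPM in infested and 5.03, 5.67, 4.46 and 4.79 CPM in control plants. With that library also left out, a second alternative chosen after seeing the data, no locus was past the threshold at 30 min. These loci were named because the alternative called 5 or fewer at each time.

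Relative to the chloroplast total, no locus passed from 30 min to 12 d, and none had an unadjusted p below 0.05. Of all genes, 0.809% were higher and 0.0719% lower on this scale at 30 min, 3.11% and 0.0494% at 24 h, 1.43% and 0.238% at 4 d, 0.369% and 0.234% at 7 d, and 0.027% and 0.418% at 12 d. The medians of the 87 loci lay between -0.06 and 0.01 on the log2 scale. Fits of each pair of groups alone called 1 higher and 1 lower locus at 24 h and 1 higher and 4 lower at 4 d.

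Nuclear genes that serve the chloroplast were in part lower in infested plants from 30 min to 4 d and in part higher at 12 and 15 d. Over all genes tested, 13.3% were higher and 9.7% lower at 30 min, and 13% and 10.2% at 24 h. These shares were 8.68% and 7.68% at 4 d, and 6.16% and 7.59% at 7 d. They were 7.78% and 8.3% at 12 d, and 8.67% and 9.68% at 15 d. Small counts, such as 3 of 27 at 4 d and 1 of 27 at 7 d below, were near these shares. Of the 20 genes of chloroplast transcription, 7 were lower and none higher at 30 min, 6 lower and none higher at 4 d, 6 higher and 3 lower at 7 d, and 7 higher and none lower at 15 d. Of the 14 genes of RNA processing and stability, 5 were lower and none higher both at 30 min and at 4 d, 2 were higher and 2 lower at 7 d, and 8 were higher and none lower at 15 d. Of the 27 nuclear-encoded subunits none passed at 30 min, 3 were lower at 4 d and 1 was higher at 7 d. Single libraries moved several of these counts by more than 1.5 times. Lower transcription genes numbered 4 at 30 min without control replicate 1 and 3 at 4 d without control replicate 3. At 7 d the higher ones numbered 1 to 5 over all single omissions, with 1 without control replicate 3, and at 15 d 4 without infested replicate 2. Lower RNA processing genes numbered 3 at 30 min without control replicate 3 and likewise without infested replicate 1, 2 or 3, and higher ones numbered 5 at 15 d without control replicate 1 or infested replicate 2. No subunit was lower at 4 d without any 1 library other than control replicate 1, and at 7 d 14 were higher without control replicate 1 and at most 1 without any other. At 15 d, 1 gene of each of the transcription and RNA processing lists was higher without the 3 libraries of high nuclear ribosomal RNA. The counts at 24 h and 12 d follow, and marker genes of other kinds also differed at these times. The green leaf markers summed to 40980 to 45480 CPM in infested and 50916 to 56442 CPM in control plants at 24 h, and to 38420 to 46046 CPM in infested and 28204 to 33100 CPM in control plants at 12 d. The senescence markers summed to 43.1 to 81.1 CPM in infested and 27.5 to 28.4 CPM in control plants at 24 h, and to 34.6 to 36.8 CPM in infested and 72.0 to 116 CPM in control plants at 12 d. The floral markers overlapped at 24 h, and at 12 d they summed to 59.4 to 81.9 CPM in infested and 88.0 to 101 CPM in control plants. The part of these differences in the values that follow was not tested. Of the 27 nuclear-encoded subunits, 9 were lower in infested plants at 24 h and none was higher, and at 12 d 18 were higher and none was lower. Of the 4 green leaf markers, 1, the Rubisco small subunit gene RBCS1A, is also among the 27. The count at 24 h was 15 when library totals replaced TMM scaling and 17 in the fit of the 2 groups alone, and the count at 12 d was 9 without control replicate 4 and 10 without infested replicate 1. Of the 20 genes of chloroplast transcription, 9 were lower and none higher at 24 h, and 15 were higher and 1 lower at 12 d. The count at 24 h was 5 without control replicate 3 and likewise without infested replicate 1, 2 or 4. The count higher at 12 d was 9 with library totals and 6 in the fit of the 2 groups alone. The 1 that was lower at 12 d was SIGE, at 95.1 ± 6.9 CPM in infested and 143 ± 31 CPM in control plants (SD, n = 4 each; log2 fold change -0.59, edgeR adjusted p = 0.00475), and without control replicate 4 none was lower. Of the 14 genes of RNA processing and stability, 10 were lower and none higher at 24 h, and 8 were higher and none lower at 12 d. The count at 24 h was 6 without control replicate 3. The count at 12 d was 3 with library totals and 2 in the fit of the 2 groups alone, and it was 4 without infested replicate 4 and 5 without control replicate 1 or without control replicate 4. CSP41A, which encodes an RNA-binding protein of the chloroplast, averaged 391 ± 5 CPM in infested and 523 ± 27 CPM in control plants at 24 h (log2 fold change -0.42, adjusted p = 0.00104). At 12 d it averaged 465 ± 25 CPM in infested and 382 ± 42 CPM in control plants (0.28, adjusted p = 0.0397).

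Whether the infestation effect on a locus changed over the 6 times was tested with the interaction contrasts of the same model. Of the 87 loci 2 passed, against 41.1% of all genes tested: ATCG00490 (edgeR adjusted p = 0.00262) and ATCG00020 (adjusted p = 0.0116). ATCG00020 had 17.4, 31.0, 39.3 and 21.3 CPM in infested and 67.4, 264, 9.27 and 264 CPM in control plants at 15 d. It had 12.7, 134, 13.3 and 15.26 CPM in infested and 13.9, 16.2, 20.5 and 15.8 CPM in control plants at 30 min. The libraries that stood apart were the high ones at both times. The number of loci that passed was 8 without these 3 libraries, 7 without control 15 d replicate 1, 29 without control 15 d replicate 3 and 17 without infested 15 d replicate 3. Relative to the chloroplast total no locus passed the interaction test, none had an unadjusted p below 0.05, and 3.27% of all genes passed. On that scale 16 passed without control 15 d replicate 3.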

How the data were processed

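The values were whole-number read counts per locus and library, as deposited by the authors for 33211 features and 48 libraries. Per the labels' protocols, total RNA went into NEBNext Ultra libraries read as pairs of 150 bases. TAIR10, HISAT2, featureCounts, fastp and DESeq2 appear in the submitters' processing notes. How strand and reads with several matches were treated is not given there, so overlapping or repeated loci cannot be separated.

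The analysis used edgeR 4.0.16 (R 4.3.3): filterByExpr by group (22252 genes), TMM scaling, 1 coefficient for each of the 12 groups, robust quasi-likelihood F-tests (two-sided), and Benjamini-Hochberg adjustment over all genes at 0.05. A second fit used a library's summed chloroplast counts as its size. SE is the log2 fold change divided by the root of F. DESeq2 1.42.0, other scalings, no filter, 2-group fits, a replicate block and leaving out each library were alternatives. The tests were tried on simulated counts. None of 72 replicate pairs was identical (chi-square per gene 2.63 to 49.8), and the labels call the pools biological replicates. Intervals cover counting error only.

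The members, lists and tests were chosen with earlier results of these data known. Named loci were the 5 largest rises and falls past the threshold in each comparison and scaling; a list of gene symbols and the top member of each gene class were also intended, but could not be applied without symbols or lengths. Loci with a note, counts of 5 or fewer and others singled out in the text were chosen after their values were seen. Notes and nuclear symbols came from the TAIR10.1 annotation, a build of another name, so no coordinates are given.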

Additional observations from a re-analysis of the deposited data

Results flagged for a closer look

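In 60 groups of 4 values examined for a library far from the others, 5 were picked out, and chance picks out about 1 in 20. The chloroplast share of counts was 0.0816% in infested 30 min replicate 2 and 0.0240% in control 12 d replicate 4, each far above the other 3 libraries of its group. The level of ATCG00920 was 22.6 CPM in infested 30 min replicate 2, far above the other 3, and the locus was examined because that library made it pass at 30 min. The level of ATCG00430 was 1.15 CPM in control 30 min replicate 1, below the other 3, which lay within 1.54 to 1.55 CPM. The level of ATCG00500 was 0.165 CPM in control 30 min replicate 4, below the other 3.

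The effect of infestation differed between harvests for ATCG00490 (edgeR interaction test, adjusted p = 0.00262) and ATCG00020 (adjusted p = 0.0116). Both had their highest control libraries at 15 d in replicates 2 and 4, and their highest infested library at 30 min in replicate 2. These are the 3 libraries with the most nuclear ribosomal RNA, at 0.203% to 0.903% of counts, and the part of that RNA in the values was not tested.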

How the results depend on the processing

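Scaling by size factors of the RLE type, by library totals or by nuclear genes, and leaving out the count filter, kept every count of chloroplast loci within 1.5 times of its value. DESeq2 gave 1 higher locus at 12 d and 6 loci in the interaction test. Fits of the 2 groups alone gave, in level among all RNA, 5 lower loci at 24 h, 5 lower at 4 d and 0 lower at 15 d; relative to the chloroplast total they gave 1 higher and 1 lower at 24 h, 1 higher and 4 lower at 4 d, and 0 higher and 0 lower for control plants of 15 d against 30 min.

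Alternatives chosen after seeing the data moved more. Without the 15 d libraries, 4 loci were higher at 30 min, 2 lower at 24 h, 5 lower at 4 d, 1 lower at 7 d and 2 higher at 12 d; with infested 30 min replicate 2 left out as well, 0 were higher at 30 min. Without the 3 libraries of high nuclear ribosomal RNA, 0 loci were higher at 30 min, 9 higher and 0 lower at 15 d, and 8 passed the interaction test; the log2 fold changes at 15 d turned to 0.38 for ATCG00340, 0.63 for ATCG00350, 0.16 for ATCG00330, 0.52 for ATCG00680, 0.65 for ATCG00430, 0.31 for ATCG00530, 0.38 for ATCG00660, 0.23 for ATCG00670 and 0.96 for ATCG01310. A fit over the chloroplast loci alone gave, relative to their total, 12 higher and 6 lower at 15 d, 20 lower in control plants of 15 d against 30 min, and 1 in the interaction test. Of the control plants of 15 d, only replicates 1 and 3 were left in the fit without the 3 libraries, and no share over all genes is given for it. The cause of these changes was not tested.

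Leaving out each library in turn gave, in level, 0 to 2 higher loci at 30 min, 0 to 1 higher at 12 d, 0 to 4 higher and 10 to 64 lower at 15 d, and 2 to 29 in the interaction test. Relative to the chloroplast total it gave 0 to 15 higher and 0 to 9 lower at 15 d, 11 to 23 lower in control plants of 15 d against 30 min, and 0 to 16 in the interaction test. At 15 d the log2 fold change of ATCG00750 lay between -0.21 (without control replicate 3) and 0.47 (without control replicate 2), and that of ATCG01310 between -0.49 (without control replicate 3) and 0.22 (without control replicate 2), with neither past the threshold.

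Replicate numbers were not taken to pair the samples, and the labels do not say what they mark: same-number correlations of deviations from the group means lay between -0.50 and 0.25, 4 of 28 were above 0.1, and 9 of 28 were the best for their number. With the replicate block, 1 locus was higher at 15 d where none was without it, and every other count of chloroplast loci stayed within 1.5 times. Taking shares of nuclear counts moved no group mean of the chloroplast share by as much as its SD. A share and a total without ribosomal and transfer RNA loci were not run, because the sources used here do not say which loci these are. Up to 12 d, 48 to 70 of the 87 loci had 10 or more counts in a library.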
